A study of Mus musculus with 6 samples.

Results

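Solute carriers are membrane proteins that move small molecules across the plasma membrane and the membranes of organelles, each family for its own kind of substrate. The genes described here are the rows of the expression tables whose mouse symbol begins with Slc, a family number and the letter a, or with Slco, without pseudogene symbols. They were 94 of 13685 rows. Of the 357 protein-coding genes with such symbols in the GENCODE M21 annotation, these 94 were 26.3%. Well-known transporters of T cells such as Slc2a1, Slc7a5 and Slc3a2 were not analysed here. Having a row moved with the number of annotated transcripts: 29 of the 34 genes with a single transcript had one, against 10 of the 126 genes with 6 or more. The symbol pattern also takes in a pair of genes that are not transporters, the scaffold protein gene Slc9a3r1 and Slc7a6os, which is named for its position opposite Slc7a6.

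The RNA came from CD4+ T cells of WT C57BL/6 mice, isolated with a CD4+ kit from spleen and mesenteric lymph node, of which the CD25- (non-Treg) cells went into culture. Cells were cultured for 4 h with tunicamycin at 0.15 µg/mL in 3 libraries, or with vehicle in 3 libraries that the titles call untreated. Replicates are marked as technical, and the number of mice behind them is not stated in the labels, so the p-values below measure only the spread between libraries. All 6 libraries share 1 stated batch, and no age of the mice is stated in the labels.

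T cells take up amino acids, sugars, choline and metals through solute carriers, and mitochondria exchange nucleotides and metabolites with the cytosol through the SLC25 family. Tunicamycin blocks the first step of N-glycan synthesis in the endoplasmic reticulum, and many plasma membrane carriers are themselves N-glycosylated proteins. Unfolded proteins that accumulate there activate a stress response whose transcription factor ATF4 is known to act on amino acid transporter genes.

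The libraries held 10584276 to 11211270 estimated counts over the listed genes in tunicamycin cells and 7412151 to 9495725 in vehicle cells, so depth moved with the group. Of 10 markers of CD4 T cells, 6 had rows (Cd3d, Cd3e, Cd5, Cd28, Il7r and Lat), and together they reached 2457 to 2624 TPM (a length-scaled share of transcripts) in tunicamycin cells and 2410 to 2680 TPM in vehicle cells. Cd4 itself was not analysed here. Plasma cell markers summed to 102, 191 and 26.1 TPM in tunicamycin replicates 1, 2 and 3 and to 92.8, 183 and 21.4 TPM in vehicle replicates 1, 2 and 3, so their level went with the replicate number. Macrophage markers summed to 6.31 to 12.7 TPM in tunicamycin and 3.92 to 12.6 TPM in vehicle cells. B cell markers lay between 0.74 and 1.22 TPM in the 6 libraries. NK cell markers summed to 9.82 to 14.6 TPM in tunicamycin and 8.23 to 10.6 TPM in vehicle cells, with Gzma at an unadjusted p of 0.025 (log2 fold change 1.15, edgeR adjusted p = 0.65). Cd8b1, of CD8 T cells, had 10.5 to 11.9 TPM in tunicamycin and 9.47 to 10.8 TPM in vehicle cells. Il2ra, which encodes CD25, had 7.74 to 14.1 TPM in tunicamycin and 6.87 to 8.41 TPM in vehicle cells. The part of these markers in the results below was not tested. In such bulk RNA, fewer cells of a type and less RNA per cell cannot be told apart.

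No solute carrier gene passed the test between tunicamycin and vehicle. Counts allowed a test for 38 of the 94 genes, and edgeR's quasi-likelihood test with Benjamini-Hochberg adjustment over 3613 genes called 0 of them, against 0.083% (3 genes) of all genes tested, 0.0554% higher and 0.0277% lower in tunicamycin. At an unadjusted p under 0.05 there were 3 genes, Slc38a9, Slc30a7 and Slc9a5, all higher in tunicamycin, which is 7.89% of the 38 against 6.42% of all genes in either direction and 3.24% higher. Without vehicle replicate 2 these were 6 of the 38 and 317 of the 3613 genes, beside 3 and 232 with all 6 libraries. DESeq2 and limma on log2(TPM + 1) also called 0 of the 38, against 0.637% and 0.0277% of all genes. Their median log2 fold change was 0.04, with 22 of 38 above 0, beside 0.001 and 50.1% above 0 for all genes.

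The intervals on counts were narrow for well expressed carriers. Of the 24 tested genes whose mean reached 5 on the log2 CPM scale (counts scaled to the library's total), all 24 had a 95% interval of the fold change that lay within 1.5-fold of no difference in either direction. The same held for 1793 of the 1912 genes at or above that mean, so it is not particular to carriers. Of all 38, 26 lay within 2-fold, beside 2333 of the 3613 genes tested. The other intervals of the 38 belonged to genes below that mean and reached past 2-fold in at least 1 direction. These bounds are for edgeR on counts: with TPM or effective-length offsets the log2 difference of Slc30a7, 1 of the 24, was 0.67 to 0.73, beyond 1.5-fold.

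**Figure D1:**
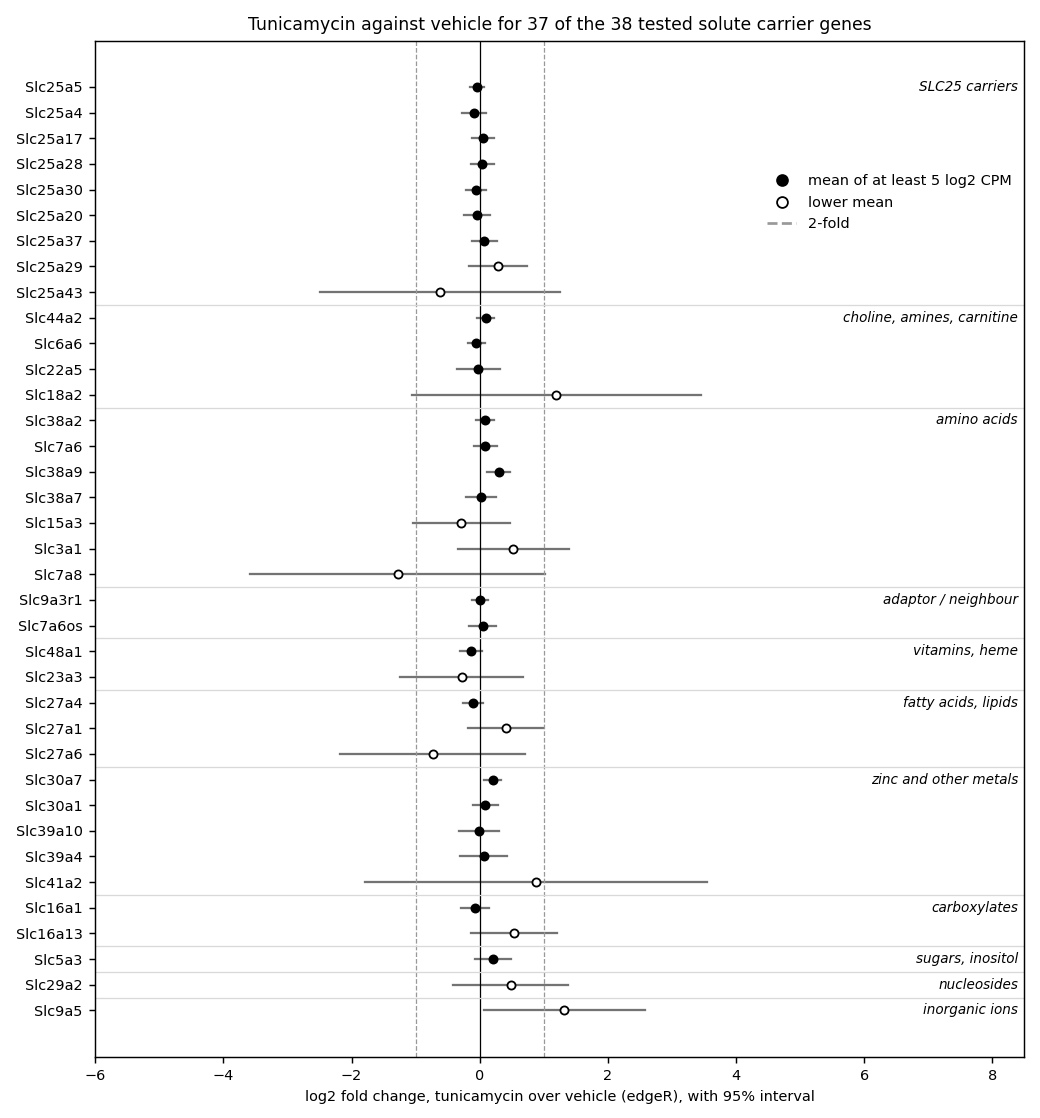
Log2 fold change (x axis) of 37 of the 38 tested solute carrier genes (rows, grouped by substrate), tunicamycin over vehicle, with 95% intervals from edgeR; filled points average 5 log2 CPM or more, open points less. The filled points lie between -0.13 and 0.30, and the widest intervals belong to open points such as Slc41a2 and Slc7a8.

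Expression among the 94 listed genes was concentrated in few of them. Genes of the family without a row are not part of these shares and ranks. Counts were present for 58 of the 94 genes, 26 reached 1 TPM in every library and 17 reached 10 TPM in every library. The other 36 were listed at 0 in every library, where a count of 0 allows up to 3 counts. Summed over members, TPM came to 1027, 1073 and 1010 in tunicamycin libraries and 997, 1018 and 950 in vehicle libraries. The most abundant 10 genes held 79.9% to 80.0% of this sum in tunicamycin cells and 80.1% to 81.0% in vehicle cells. On the TPM scale, which allows for transcript length, the order began with Slc25a5, Slc44a2, Slc38a2, Slc9a3r1 and Slc25a4, and the 6-library ranges of neighbours among these 5 did not overlap. From Slc25a4 to Slc6a6 the ranges of neighbours overlapped.

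**Figure D2:**
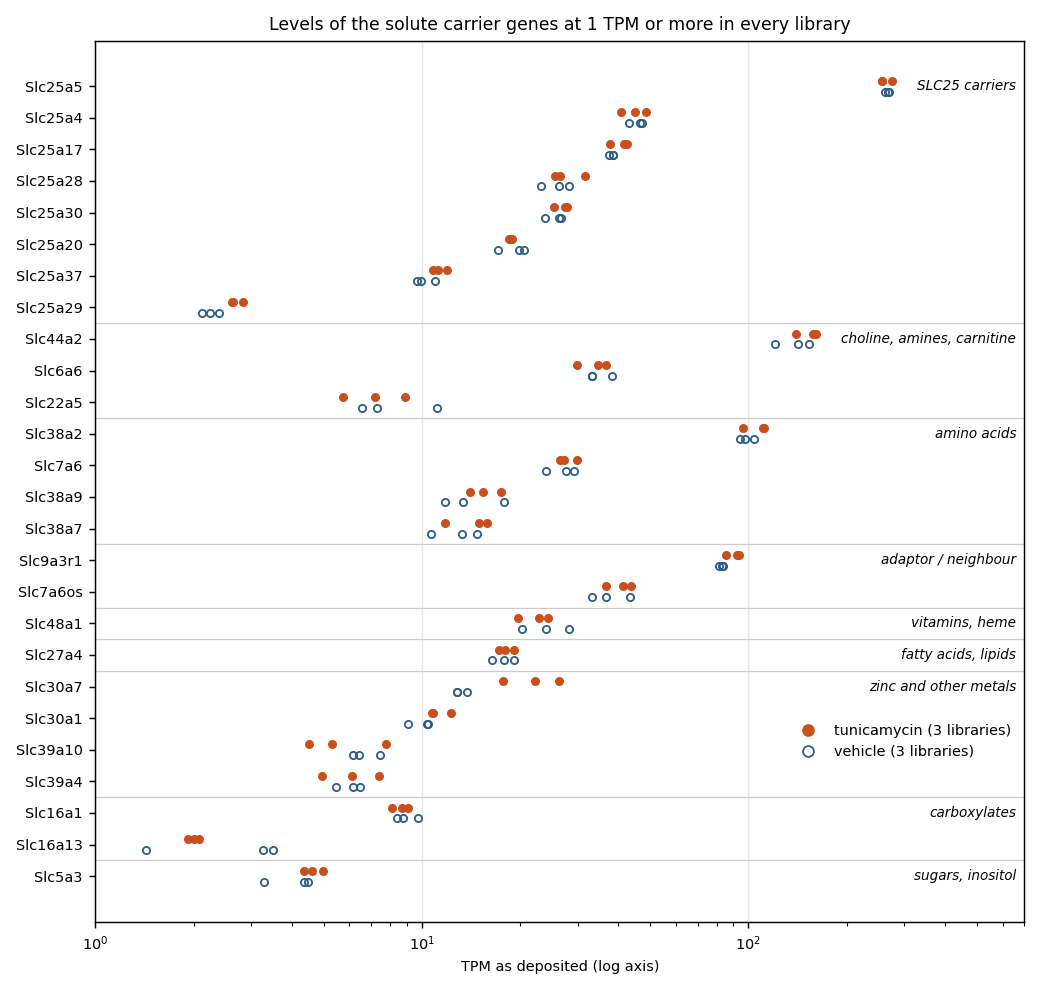
TPM as deposited (x axis, log scale) of the 26 solute carrier genes at 1 TPM or more in every library, 1 point per library, tunicamycin filled and above, vehicle open and below, grouped by substrate. The groups lie on each other for most genes, and Slc30a7 stands apart with 17.7 to 26.2 TPM in tunicamycin against 12.8 to 13.7 TPM in vehicle cells.

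Mitochondrial carriers of the SLC25 family made up the largest share among the listed genes. Of their 16 rows, 12 had counts, 8 reached 1 TPM in every library and 9 were tested, with 0 at an unadjusted p under 0.05 and a median log2 fold change of -0.04. The sign of that median was not stable: it was above 0 in 7 of 17 alternatives, up to 0.068 with limma on log2(TPM + 0.1). Together they held 42.2% ± 0.23 of the members' TPM in tunicamycin cells and 43.9% ± 0.71 in vehicle cells (SD, n = 3 each). The per-library shares were 41.9%, 42.3% and 42.2% in tunicamycin and 44.0%, 43.2% and 44.6% in vehicle cells, so the groups did not overlap, while their summed TPM did (426 to 454 and 424 to 440).

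The ADP/ATP carriers, which export ATP from mitochondria in exchange for ADP, included the most abundant listed gene, Slc25a5. Slc25a5 had 257, 276 and 257 TPM in tunicamycin cells and 270, 267 and 262 TPM in vehicle cells. The groups overlapped, with a log2 fold change of -0.04 (95% interval -0.15 to 0.07, edgeR adjusted p = 0.95). Slc25a4, the isoform that dominates in heart and muscle, had 48.7, 44.9 and 40.9 TPM in tunicamycin and 46.6, 47.4 and 43.1 TPM in vehicle cells, also overlapping (log2 fold change -0.09, interval -0.28 to 0.09). Slc25a5 thus stood 5.28 to 6.29 times above Slc25a4 in tunicamycin and 5.64 to 6.08 times in vehicle cells. The carriers are close paralogs, and reads shared between them or with pseudogene copies may have been split by the quantification. Slc25a31, the ADP/ATP carrier of testis, was listed at 0 in all 6 libraries (it lies outside the rule for named genes and was chosen after its values were seen). The promoter windows of the 3 paralogs are shown because all are rich in CG dinucleotides while their levels run from the top of the listed genes to 0. Each is a 300-base promoter window, written 5′ to 3′, with CG dinucleotides in capitals (RefSeq, GRCm38.p6). By the GENCODE M21 gene spans, the Slc25a5 window ends just before the gene start at 36795651. Most of the Slc25a4 window lies downstream of the start at 46211284, and the Slc25a31 window spans the start at 40708855.
Slc25a5, chrX:36795347-36795646, plus strand: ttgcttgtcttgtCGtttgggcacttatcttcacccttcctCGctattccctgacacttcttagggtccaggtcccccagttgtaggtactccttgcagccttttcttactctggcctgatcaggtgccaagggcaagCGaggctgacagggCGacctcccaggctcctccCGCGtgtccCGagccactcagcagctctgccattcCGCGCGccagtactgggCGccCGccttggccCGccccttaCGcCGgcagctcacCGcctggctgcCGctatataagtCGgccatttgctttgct
Slc25a4, chr8:46211013-46211312, minus strand: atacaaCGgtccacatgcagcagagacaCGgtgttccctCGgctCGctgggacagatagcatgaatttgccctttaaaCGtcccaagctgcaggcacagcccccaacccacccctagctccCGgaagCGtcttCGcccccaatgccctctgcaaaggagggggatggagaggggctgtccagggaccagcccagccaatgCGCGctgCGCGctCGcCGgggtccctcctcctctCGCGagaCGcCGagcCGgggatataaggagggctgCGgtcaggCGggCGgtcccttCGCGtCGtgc
Slc25a31, chr3:40708621-40708920, plus strand: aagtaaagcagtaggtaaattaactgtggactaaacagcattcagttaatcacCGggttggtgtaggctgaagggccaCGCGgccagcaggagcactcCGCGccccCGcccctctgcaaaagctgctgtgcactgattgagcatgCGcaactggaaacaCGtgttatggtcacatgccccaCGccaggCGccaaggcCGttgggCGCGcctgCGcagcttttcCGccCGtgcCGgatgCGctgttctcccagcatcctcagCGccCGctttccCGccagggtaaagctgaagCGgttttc
They hold 18, 25 and 22 CG dinucleotides for Slc25a5, Slc25a4 and Slc25a31.

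The well expressed other members of the family, mitochondrial and peroxisomal, differed little between the groups. Slc25a17, a peroxisomal carrier of cofactors, had 37.7, 42.6 and 41.5 TPM in tunicamycin and 37.5, 38.5 and 38.5 TPM in vehicle cells (log2 fold change 0.05, interval -0.11 to 0.22). Slc25a28, mitoferrin-2, which brings iron into mitochondria, had 26.5, 31.6 and 25.6 TPM in tunicamycin and 26.2, 28.2 and 23.2 TPM in vehicle cells (0.04, interval -0.14 to 0.22). Both genes overlapped between the groups. Among genes outside the naming rule, chosen after their values were seen, the erythroid-type mitoferrin Slc25a37 had 10.8 to 11.9 TPM in tunicamycin and 9.67 to 11 TPM in vehicle cells. Erythroid markers summed to 1.10 to 5.02 TPM in tunicamycin and 0.94 to 7.64 TPM in vehicle cells, and their part in the Slc25a37 level was not tested. Slc25a29, a carrier of basic amino acids, had 2.61 to 2.84 TPM in tunicamycin and 2.12 to 2.39 TPM in vehicle cells without overlap, at an edgeR adjusted p of 0.89. Among the scarce ones, Slc25a43 had 5, 12 and 8 counts in tunicamycin and 9.1, 8 and 11.5 counts in vehicle cells (log2 fold change -0.62, SE 0.86). Slc25a16, not tested, had 1.1, 5.6 and 6.6 counts in the deeper tunicamycin libraries and 0 in every vehicle library.

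Choline and amine carriers held the next share, 18.7% ± 1.07 of the members' TPM in tunicamycin and 18.4% ± 1.24 in vehicle cells (SD, n = 3 each). Of 13 rows, 8 had counts and 4 were tested. Slc44a2, choline transporter-like protein 2, had 158, 161 and 140 TPM in tunicamycin and 142, 153 and 120 TPM in vehicle cells. The ranges overlapped, and the log2 fold change was 0.09 (interval -0.04 to 0.23, edgeR adjusted p = 0.86). Slc6a6, the taurine transporter, had 36.6, 34.6 and 29.9 TPM in tunicamycin and 38.3, 33.2 and 33.2 TPM in vehicle cells (log2 fold change -0.06, interval -0.19 to 0.07). Slc22a5, the carnitine transporter, spread as widely within a group as between groups, with 5.73 to 8.86 TPM in tunicamycin and 6.58 to 11.1 TPM in vehicle cells. The transporters of dopamine (Slc6a3), acetylcholine vesicles (Slc18a3) and the high-affinity choline uptake of neurons (Slc5a7) were listed at 0 in every library.

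Amino acid carriers are the group in which ATF4 targets are best known. Of the listed transporters linked to stress or ATF4, only Slc38a2, Slc7a6 and Slc38a7 had a row. Others, such as Slc7a11, Slc7a5 and Slc3a2, were not analysed here. Of the group's 12 rows, 7 had counts, all 7 were tested and 4 reached 1 TPM in every library. Their summed TPM was 166 ± 8.18 in tunicamycin and 155 ± 11.6 in vehicle cells (SD, n = 3 each), and the median log2 fold change was 0.08, with 1 of 7 at an unadjusted p under 0.05. Slc38a2, a sodium-coupled neutral amino acid transporter (SNAT2) and a known ATF4 target in mammalian cells, had 96.4, 112 and 110 TPM in tunicamycin and 94.5, 104 and 97.8 TPM in vehicle cells. The groups overlapped, and the log2 fold change was 0.08 (interval -0.06 to 0.22, edgeR adjusted p = 0.91). Slc7a6, the light chain of an exchanger of basic and neutral amino acids, had 29.8, 27.3 and 26.4 TPM in tunicamycin and 23.9, 29.2 and 27.6 TPM in vehicle cells. Slc38a7, a lysosomal glutamine transporter, had 11.8 to 15.9 TPM in tunicamycin and 10.6 to 14.8 TPM in vehicle cells, so these genes overlapped as well.

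Slc38a9 encodes a lysosomal carrier that senses arginine for the kinase complex mTORC1. The span of an annotated antisense gene, Gm47827, overlaps that of Slc38a9, and whether the pair shares exons or reads was not tested. Slc38a9 had 164.5, 180.5 and 181.5 CPM in tunicamycin cells and 141, 153 and 135 CPM in vehicle cells. The groups did not overlap, with a log2 fold change of 0.30 (SE 0.08, 95% interval 0.12 to 0.48), an unadjusted p of 0.0039 and an edgeR adjusted p of 0.40. On the TPM scale the groups overlapped, at 15.4, 17.4 and 14.0 TPM in tunicamycin and 13.4, 17.9 and 11.8 TPM in vehicle cells. With the effective lengths as offsets the edgeR log2 fold change was 0.06 (adjusted p = 0.97).

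Metal carriers were 1 of 3 among the 13 substrate groups whose summed TPM did not overlap between the conditions, beside the single nucleoside carrier Slc29a2 and the pair Slc9a3r1 and Slc7a6os. Their sums were 43.7, 48.6 and 44.4 TPM in tunicamycin and 36.7, 35.9 and 35.1 TPM in vehicle cells. All 7 rows had counts and 5 were tested, with 1 at an unadjusted p under 0.05. Slc30a7 alone carried that gap: without it the sums were 26.0, 22.3 and 22.1 TPM in tunicamycin and 23.0, 23.0 and 22.3 TPM in vehicle cells. Slc30a1, the zinc exporter of the plasma membrane, had 10.8, 10.7 and 12.3 TPM in tunicamycin and 10.4, 9.08 and 10.4 TPM in vehicle cells (log2 fold change on counts 0.08, interval -0.11 to 0.28). The TPM groups did not overlap, and the counts per library did. The zinc importer Slc39a10 had 4.52 to 7.76 TPM in tunicamycin and 6.15 to 7.47 TPM in vehicle cells. Its relative Slc39a4 had 4.94 to 7.40 TPM in tunicamycin and 5.46 to 6.47 TPM in vehicle cells, and both overlapped.

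Slc30a7 encodes a zinc transporter of the early secretory pathway that supplies zinc to enzymes such as alkaline phosphatases. It lies at chr3:115938973-116007406 on the minus strand (GRCm38). By counts it had 316, 311 and 299 CPM in tunicamycin and 275, 264 and 265 CPM in vehicle cells, without overlap. The log2 fold change was 0.20 (SE 0.06, interval 0.07 to 0.34), with an unadjusted p of 0.0061 and an edgeR adjusted p of 0.44. By TPM the difference was larger, at 17.7, 26.2 and 22.3 TPM in tunicamycin and 13.7, 12.9 and 12.8 TPM in vehicle cells. Limma on log2(TPM + 1) gave a difference of 0.69 with an adjusted p of 0.31. Its effective length, the ratio of deposited count to TPM put on a scale of bases, was 6196, 4223 and 4643 bases in tunicamycin and 6789, 6810 and 6733 bases in vehicle cells. The limma test centred each library on its median ratio over the genes tested instead of using bases. There the log2 difference was -0.48 (interval -0.87 to -0.09, limma adjusted p = 0.10). The annotation lists transcripts of 359, 1326, 2210 and 9020 bases for the gene, of which only the longest is protein-coding, and the transcripts behind the ratio were not resolved here. The pseudogene Gm6649 lies in it on the opposite strand and had 34.2, 37.1 and 43.4 counts in tunicamycin and 47.2, 28.2 and 10.0 counts in vehicle cells; no source used here says whether strand was used in counting. The promoter window is shown because the gene had the lowest adjusted p of any member over the alternatives, with CG dinucleotides in capitals.
Slc30a7, chr3:116007357-116007656, minus strand: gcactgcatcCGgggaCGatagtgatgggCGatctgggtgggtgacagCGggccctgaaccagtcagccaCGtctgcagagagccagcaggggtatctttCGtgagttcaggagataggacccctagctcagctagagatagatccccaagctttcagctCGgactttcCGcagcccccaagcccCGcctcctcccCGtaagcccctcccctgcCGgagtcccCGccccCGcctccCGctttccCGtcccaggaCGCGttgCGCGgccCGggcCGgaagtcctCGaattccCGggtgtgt
It holds 23 CG dinucleotides.

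Counts and TPM disagreed in direction for Slc16a13, a monocarboxylate carrier family member. It had 16.5, 11.8 and 13.7 CPM in tunicamycin and 10.5, 11.9 and 6.64 CPM in vehicle cells, a log2 fold change of 0.54 (interval -0.13 to 1.20, edgeR adjusted p = 0.84). By TPM it had 1.93, 2.07 and 2.01 in tunicamycin and 3.27, 3.51 and 1.43 in vehicle cells, a limma difference of -0.26 on log2(TPM + 1). The groups overlapped on both scales. Its effective length was 2976, 2032 and 2351 bases in tunicamycin and 1088, 1123 and 1513 bases in vehicle cells. On the centred scale of the limma test the log2 difference was 0.95 (interval 0.45 to 1.46, limma adjusted p = 0.041). Its annotated transcripts have 348, 360, 455 and 2531 bases. The effective length could be tested for 28 members, and 4 passed: Slc16a13, Slc9a3r1 (-0.09), Slc27a4 (-0.09) and Slc5a3 (0.05, log2). That is 14.3% of them, against 13.8% of the 2406 genes tested, and the cause was not tested.

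**Figure D3:**
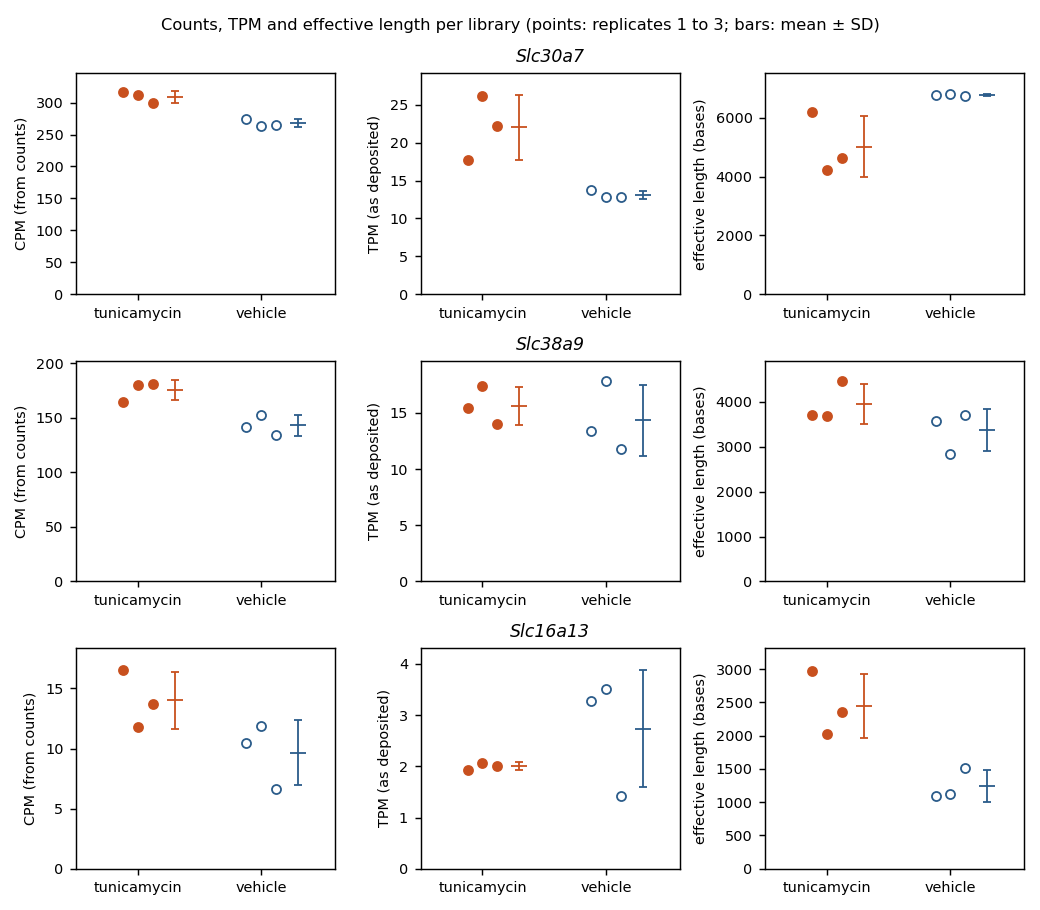
CPM from counts, TPM as deposited and effective length in bases (columns, each y axis from 0) of Slc30a7, Slc38a9 and Slc16a13 (rows) in the 3 tunicamycin and 3 vehicle libraries, with mean ± SD. Effective length of Slc16a13 is 2032 to 2976 bases in tunicamycin against 1088 to 1513 bases in vehicle cells, while its CPM and TPM means differ in opposite directions.

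Carriers of other substrates were low or overlapped between the groups. Slc16a1, the lactate and pyruvate carrier MCT1, had 8.11, 9.06 and 8.67 TPM in tunicamycin and 9.71, 8.37 and 8.75 TPM in vehicle cells (log2 fold change -0.07, interval -0.29 to 0.14). Slc48a1, a transporter of heme, had 24.3, 22.9 and 19.7 TPM in tunicamycin and 24.0, 20.3 and 28.2 TPM in vehicle cells (-0.13, interval -0.30 to 0.04). Slc5a3, the sodium and myo-inositol cotransporter, had 4.62, 4.96 and 4.37 TPM in tunicamycin and 3.29, 4.48 and 4.36 TPM in vehicle cells (0.20, interval -0.08 to 0.48). It lies within the span of Mrps6 on the same strand, so reads may have been split between them. All of these overlapped. The other 5 sugar carriers with a row (Slc2a7, Slc2a10, Slc2a12, Slc5a1 and Slc5a4a) were listed at 0 in every library.

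Fatty acid carriers were represented by the acyl-CoA synthetases of the SLC27 family. Slc27a4 had 18.0, 17.2 and 19.1 TPM in tunicamycin and 19.2, 16.4 and 17.8 TPM in vehicle cells, with overlap (log2 fold change -0.11, interval -0.27 to 0.05). Slc27a1 was lower expressed and did not overlap on the TPM scale, at 2.32, 2.04 and 2.65 TPM in tunicamycin and 1.36, 1.63 and 0.84 TPM in vehicle cells (0.40 on counts, interval -0.18 to 0.99, edgeR adjusted p = 0.87).

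Slc9a5, a sodium and proton exchanger best known from brain, had 61, 66 and 38 counts in tunicamycin and 6, 18 and 25 counts in vehicle cells. Scaled for depth, these were 5.73, 5.78 and 3.44 CPM in tunicamycin and 0.81, 2.40 and 2.72 CPM in vehicle cells. The groups did not overlap, with a log2 fold change of 1.32 (interval 0.07 to 2.57), an unadjusted p of 0.040 and an edgeR adjusted p of 0.70. Its level was under 1 TPM in every library. Over all 38 tested genes, 5 did not overlap on the CPM scale, 4 of them higher in tunicamycin (Slc38a9, Slc30a7, Slc25a29 and Slc9a5) and 1 lower (Slc25a43), which is 13.2% against 12.6% of all genes, 6.62% higher and 5.95% lower. On the TPM scale 7 did not overlap (18.4% against 13.9%), all higher in tunicamycin, where 10.4% of all genes were higher and 3.54% lower without overlap. The median of all genes on that scale was 0.046 with limma on log2(TPM + 1). Slc9a3r1 was among these 7 at 93.8, 85.5 and 92.5 TPM in tunicamycin and 83.3, 81.0 and 82.8 TPM in vehicle cells, with a log2 fold change on counts of 0.01 (interval -0.12 to 0.13).

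Listed transport partners (solute carriers with other symbols, pumps, channels and ABC transporters) were tested beside the members. Of 109 listed genes 27 had a row, 23 were tested and edgeR called 0, with a median log2 fold change of 0.045. At an unadjusted p under 0.05 there was 1, the ABC transporter Abcd4 (0.36, interval 0.09 to 0.63, edgeR adjusted p = 0.59). Of 12 stress response genes listed as a check of the treatment 5 had a row (Atf4, Chac1, Sesn2, Dnajb9 and Pck2). Of these 4 were tested, and edgeR called 0. Pck2 among them had an unadjusted p under 0.05 (0.37, edgeR adjusted p = 0.36). The 95% intervals of the other tested check genes included no difference. On the log2 scale Atf4 stood at -0.05 (-0.19 to 0.10), Sesn2 at 0.02 (-0.23 to 0.26) and Dnajb9 at 0.05 (-0.14 to 0.24). Hspa5, Ddit3 and Xbp1 were among the listed genes not analysed here, so the check is partial.

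Promoters of the expressed carriers held more CG dinucleotides than those of the silent ones. RefSeq windows of GRCm38.p6 matched 78 of the 94 genes. The median was 25 CG dinucleotides for the 21 matched genes at 1 TPM or more in every library, 8.0 for the 31 matched genes listed at 0 and 7.0 over all 27025 genes with a window. At least 10 were present in 95.2% of these expressed genes, in 45.2% of the silent ones and in 43.9% of all genes. These sets were split by level, so the values are a description. Stress response elements were searched as exact letters on both strands and were rare. The elements ERSE and ERSE-II, known from promoters of chaperone genes, were in 0 of the 85 windows of members, against 0.119% and 0.0365% of all 32851 windows. The UPR element TGACGTGG was in 2 windows, both of Slc7a6 (2.35% against 0.676%), and the ATF4-type element TGATGNAA in 1 window, of Slc23a3 (1.18% against 3.97%). A match describes these letters and not binding.

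**Figure D4:**
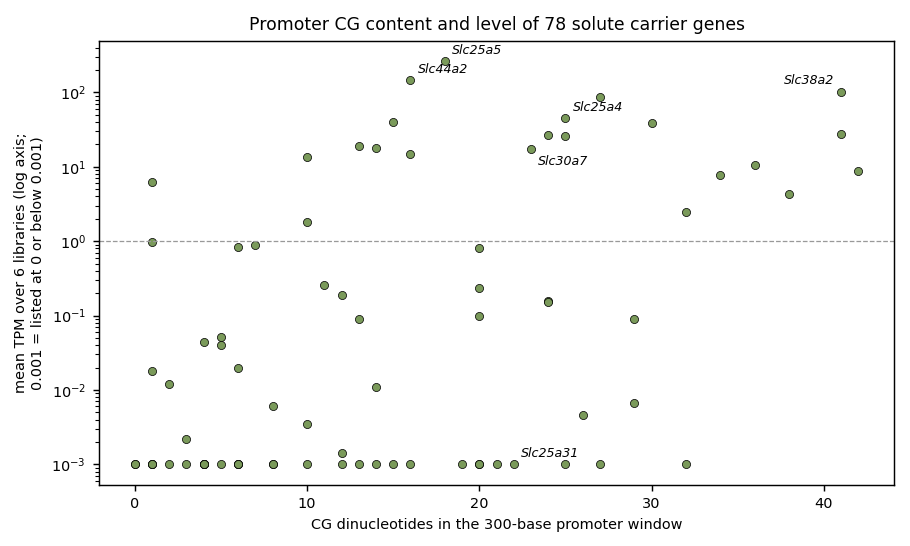
CG dinucleotides in the 300-base promoter window (x axis) and mean TPM over the 6 libraries (y axis, log scale, genes listed at 0 drawn at the bottom) for 78 solute carrier genes. Expressed genes have a median of 25, but Slc25a31 is listed at 0 with 22 CG dinucleotides.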

How the data were processed

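Estimated counts and TPM per gene were deposited by the authors for 6 libraries of 150-base paired reads. Per the submitters' processing notes, bcl2fastq, Salmon, DESeq2 and the GRCm39 build were used, with no role, version or annotation given. The deposited estimated counts were rounded to whole numbers, and all columns matched a library. The edgeR 4.0.16 quasi-likelihood test (TMM, filterByExpr, robust) in R 4.3.3 compared 3 tunicamycin with 3 vehicle libraries over 3613 genes, with Benjamini-Hochberg adjustment and a threshold of 0.05. CPM used TMM-scaled totals. DESeq2 1.42.0 and limma 3.58.1 on log2(TPM + 1) were alternatives. The edgeR, DESeq2, limma and block tests were run on simulated counts without a replicate effect or transcript lengths. The effective-length test was run on simulated ratios. Fits with effective-length offsets were not run on simulated data. The members, gene lists and substrate groups were chosen with earlier results of these data known. The 24 named genes were, in each substrate group, up to 4 genes of highest mean TPM where it was at least 1, up to 6 per direction with an unadjusted p under 0.05 and groups that did not overlap, any call, and those with a row on lists of transporters linked to stress and to T cell metabolism; a named example outside this rule was chosen after its values were seen. Effective length, the deposited count over TPM, was put in bases with 189 single-transcript genes longer than 2000 bases. It was tested with limma on genes with at least 50 counts in every library. For that test each library's log2 ratio was centred on its median over those genes, so the differences are not exactly those of the bases. That test and the counts of intervals within 2-fold were chosen after seeing the data. Coordinates and transcripts are from GENCODE M21 and RefSeq GRCm38.p6, not the authors' build. Intervals cover the spread between libraries. The values of 1 tested member are not reported here, though it is included in the counts and medians.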

Additional observations from a re-analysis of the deposited data

How the results depend on the processing

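No alternative called a solute carrier gene: 0 of those tested passed in each of 17 alternatives, and the smallest adjusted p of any member was 0.092 (Slc30a7, replicate block with effective-length offsets). The median log2 fold change of the members was 0.082 with no composition factor and 0.077 with limma on log2(TPM + 0.1), beside 0.043 and 0.064 for all genes, and it ran between 0.007 and 0.101 when 1 library was left out, 0.101 without vehicle replicate 2. Of the 24 named genes, 13 kept their sign in all 17 alternatives. Slc30a7 ranged between 0.19 and 0.73 (adjusted p 0.092 to 0.997) and Slc38a9 between 0.06 and 0.35 (0.094 to 0.997). Genes called over all 3613 tested numbered 3 with edgeR, 16 without a filter (6753 tested), 23 with DESeq2 and 36 with the replicate number as a block. The block gave 4 of the 38 members at an unadjusted p under 0.05, beside 387 of all 3613 genes. Same-numbered libraries correlated at 0.037, 0.187 and 0.107 in their deviations from the group means. Each of the 6 correlated best with its own number, but not every pair passed 0.1. The main fit left the number out, so its intervals and p-values do not allow for pairing. The library names share the number and the plasma cell markers go with it, a hint of pairing whose meaning the labels do not state. No member's call changed under the block, where the edgeR adjusted p was 0.107 for Slc30a7 and 0.094 for Slc38a9. Of 187 group medians under the alternatives, 21 moved. Depth limits the 14 tested members below 5 log2 CPM and the 20 members with counts that could not be tested.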

Other observations

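Several low carriers had counts in scattered libraries, chosen after their values were seen. Slc18a2, the vesicular monoamine transporter, had 23, 52 and 2 counts in tunicamycin and 12, 9 and 2 counts in vehicle cells (log2 fold change 1.19, edgeR adjusted p = 0.91). Slc41a2, a magnesium transporter, had 12, 20 and 45 counts in tunicamycin and 0, 27 and 2 in vehicle cells (0.87, edgeR adjusted p = 0.96). Others lay the other way. Slc7a8 had 10.7, 12 and 6 counts in tunicamycin and 1, 41.3 and 8 in vehicle cells (-1.28, edgeR adjusted p = 0.91). Slc27a6 had 17, 19 and 14 counts in tunicamycin and 12, 15 and 36 in vehicle cells (-0.74, edgeR adjusted p = 0.92). The organic anion transporter Slco1a6 had too few counts to be tested. It was at 0.62, 2.21 and 2.03 TPM in tunicamycin and at 0.00, 0.23 and 0.77 TPM in vehicle cells, with overlap.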
